A study of Mus musculus with 12 samples.

Results

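Skin of Tcrb-/- mice that had received regulatory T cells (Tregs) before exposure to the carcinogen DMBA was compared with skin of wild-type (WT) mice exposed to DMBA. The comparison takes all 6 libraries whose titles name these groups, 3 a group, of 12 in the series. The question was how skin that holds transferred Tregs but no αβ T cells of its own differs from skin with the full WT T cell compartment under the same carcinogen. WT DMBA mice were FVB animals given DMBA on the skin. Tcrb-/- + Treg DMBA mice lacked the T cell receptor beta chain on the FVB background (FVB/N in the study's methods), were given Tregs intravenously from WT donors (CD3+CD4+CD25+ cells), and then had DMBA. Per the series' design text, DMBA was given at 200 ng weekly for 6 weeks. The study's methods give other doses and cell numbers. The other groups of the series, used here only for side-by-side levels, were untreated WT (UT WT) and Tcrb-/- mice given DMBA without Tregs, 3 libraries each. The treatment field of the WT DMBA libraries reads "Naïve" while their titles name DMBA, and the titles were followed. Nothing in the sources used here ties each library to its own mouse. A p-value here therefore sets a difference against how far libraries of a group lay apart, which may be technical. In the main edgeR fit that spread was estimated over all 12 libraries, including the groups outside the contrast.

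As background, Tregs are CD4+ T cells that restrain inflammation, and in mouse skin many sit around the hair follicle. Loss of the T cell receptor beta chain removes αβ T cells, conventional and regulatory, and leaves γδ T cells, including those of the mouse epidermis. A Tcrb-/- recipient of purified Tregs is therefore a host in which transferred cells are the source of αβ T cells. Donor cells purified by CD25 can also hold activated conventional T cells. The study checked donor purity by Foxp3 and CD25 staining. In a shorter DMBA experiment it found FoxP3+ cells in the skin and draining lymph nodes of recipients. What the transferred cells had become by the time of sampling was not measured in these libraries. DMBA is a polycyclic hydrocarbon whose metabolites bind DNA, and it is used to start skin tumours in mice.

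RNA of whole skin was read after polyA selection, so a lower level of a transcript can come from fewer cells of a type or from less RNA per cell, and these cannot be told apart. Total estimated reads were 17312566 to 22111027 in WT DMBA and 20502907 to 25003790 in Tcrb-/- + Treg DMBA libraries. The files list transcripts of the FVB/NJ strain by identifier only, and none of the 85565 identifiers was paired with a gene by the tables used here. Transcripts are therefore described by level, length and identifier. The deleted gene, T cell markers and markers of other tissues in the biopsy could not be looked up, so neither the genotype nor the tissue label was checked against them. No sequence is printed for the same reason.

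Transcripts that were lower in Tcrb-/- + Treg skin outnumbered those that were higher among the calls, while most abundant transcripts with a difference over 16-fold were higher and were not called. A transcript was called where edgeR's quasi-likelihood test gave a Benjamini-Hochberg adjusted p below 0.01 and the fold change was above 2. Of 54539 transcripts tested, 216 were called (0.396%). Of these, 190 were lower (0.348%) and 26 higher (0.0477%) in Tcrb-/- + Treg than in WT skin. At an unadjusted p below 0.05 the balance was different, with 4028 transcripts higher (7.39%) and 3587 lower (6.58%). By DESeq2, the tool the study names, the same thresholds called 2000 transcripts (3.67%), 1413 lower (2.59%) and 587 higher (1.08%), and these held all 216 of the edgeR calls. On the 3637 transcripts whose estimates were whole numbers in every library, a setting chosen after seeing the values, edgeR called 159 (4.37%), 116 lower and 43 higher.

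The 190 lower transcripts had a median log2 fold change of −1.90, and 84 of them were at least 4-fold lower. Their median level was 27.6 TPM (a read share corrected for transcript length) in WT DMBA and 5.86 TPM in Tcrb-/- + Treg DMBA. The 26 higher transcripts had a median log2 fold change of 1.44, with 7 at least 4-fold higher, and median levels of 12.8 and 29.1 TPM. In each direction 1 called transcript was at 0 in every library of a group. Set against a floor of 3 reads per library, the higher one had a log2 difference of at least 4.6 and the lower one of −7.41 or below, and the medians were the same with those bounds. Without these, fitted log2 fold changes reached 6.15 and −6.48.

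The transcripts called by edgeR were longer and more abundant than those tested as a whole. Median length was 3480 nt for the higher and 2025 nt for the lower transcripts, against 1712 nt for all tested. A mean of at least 10 TPM over the 6 libraries was seen for 73.1% of the higher and 66.3% of the lower transcripts, against 19.3% of all tested. Among DESeq2 calls the WT DMBA medians were lower, at 2.54 TPM for the higher and 6.80 TPM for the lower transcripts, and the length order turned, with 2481 nt for the higher and 2657 nt for the lower. Of the 26003 tested transcripts with a mean below 1 TPM, 1 was called, so these medians hardly cover transcripts of low level.

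**Figure D1:**
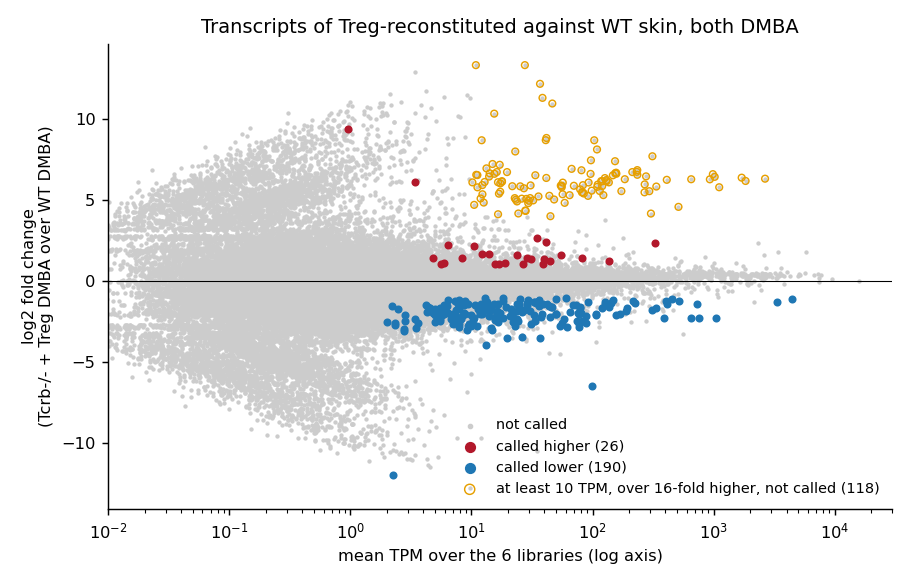
Each point is 1 tested transcript, placed by its mean TPM over the 6 libraries (x axis, log scale) and its edgeR log2 fold change of Tcrb-/- + Treg DMBA over WT DMBA (y axis). Blue and red points are the 190 transcripts called lower and 26 called higher, and open orange circles are 118 abundant transcripts over 16-fold higher that were not called.

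A set of abundant transcripts was far higher in Tcrb-/- + Treg skin and yet held no edgeR call. Among 10522 transcripts with a mean of at least 10 TPM, 118 (1.12%) were over 16-fold higher and 6 were over 16-fold lower. This set was chosen after the values were seen and from the contrast itself, so it is given as a description with no test. In WT DMBA libraries 1 to 3 the 118 transcripts held 0.0524%, 0.134% and 0.0254% of all TPM. In Tcrb-/- + Treg libraries 1 to 3 they held 4.58%, 6.03% and 1.38%. The third Tcrb-/- + Treg library had the lowest level for 100 of the 118. Groups did not overlap for 114, which the choice by fold favours. Over all tested transcripts, 10.8% were higher without overlap and 21.8% did not overlap in either direction.

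The spread between libraries was wide in these transcripts, and the tools differed on them. By edgeR 0 of 118 were called, with a smallest adjusted p of 0.0107, while 117 had an unadjusted p below 0.05 (14% of all tested) and 54 an adjusted p below 0.05 (2.84% of all tested). DESeq2 called 91 of them (3.67% of all tested), limma-voom 0 (0.567% of all tested) and limma on log2(TPM + 0.5) 58 (1.32% of all tested). Since the set was chosen by fold in this contrast, nothing is read from these counts against those shares. DESeq2 called 48 without Tcrb-/- + Treg replicate 1, 48 without replicate 2 and 50 without replicate 3. Their median log2 fold change was 6.10, and 5.70 to 7.59 with 1 library left out.

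These transcripts were also high and uneven in Tcrb-/- skin without Tregs. There they held 5.68%, 0.964% and 0.416% of TPM in libraries 1 to 3, a range that overlaps that of the Tcrb-/- + Treg libraries. For 117 of the 118 the levels of these groups overlapped. In UT WT skin they held 0.0107% to 0.0156%. What these transcripts come from was not tested, since no identifier could be paired with a gene. With the 118 transcripts taken out before the fit, edgeR called 229 transcripts, 201 lower and 28 higher, and these held all 216.

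Taken as a share of all TPM, the lower calls weighed more than the higher ones. The 190 transcripts made up 3.46%, 2.88% and 2.85% of TPM in WT DMBA libraries 1 to 3. In Tcrb-/- + Treg libraries they made up 0.797%, 0.954% and 0.916%. The 26 higher transcripts made up 0.0561%, 0.0540% and 0.0554% of TPM in WT DMBA and 0.148%, 0.179% and 0.129% in Tcrb-/- + Treg libraries. The 118 uncalled transcripts described above went the other way, at a mean of 0.0706% ± 0.0565 in WT DMBA and 4.0% ± 2.38 in Tcrb-/- + Treg (SD). All these shares follow from how the transcripts were chosen and were not tested.

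The groups outside the contrast were set beside these values. Relative to the mean CPM (reads scaled by library size, not by length) of WT DMBA, the 190 lower transcripts had a median log2 level of −1.97, −1.60 and −2.09 in Tcrb-/- + Treg libraries 1 to 3. In Tcrb-/- libraries without Tregs the medians were −0.75, −0.44 and −0.37, and in UT WT −0.58, −0.53 and −0.50. The Tcrb-/- + Treg medians thus lay below those of both other groups. The 26 higher transcripts had medians of 1.42, 1.61 and 1.29 in Tcrb-/- + Treg, 1.01, 0.80 and 0.68 in Tcrb-/- and −0.11, −0.09 and −0.08 in UT WT libraries. Both Tcrb-/- groups lay above both WT groups in this measure, with Tcrb-/- + Treg highest. The transcripts were chosen by Tcrb-/- + Treg against WT DMBA, which favours Tcrb-/- + Treg as the most extreme group, and WT DMBA is the reference of every value, so the order of the groups is a description only.

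**Figure D2:**
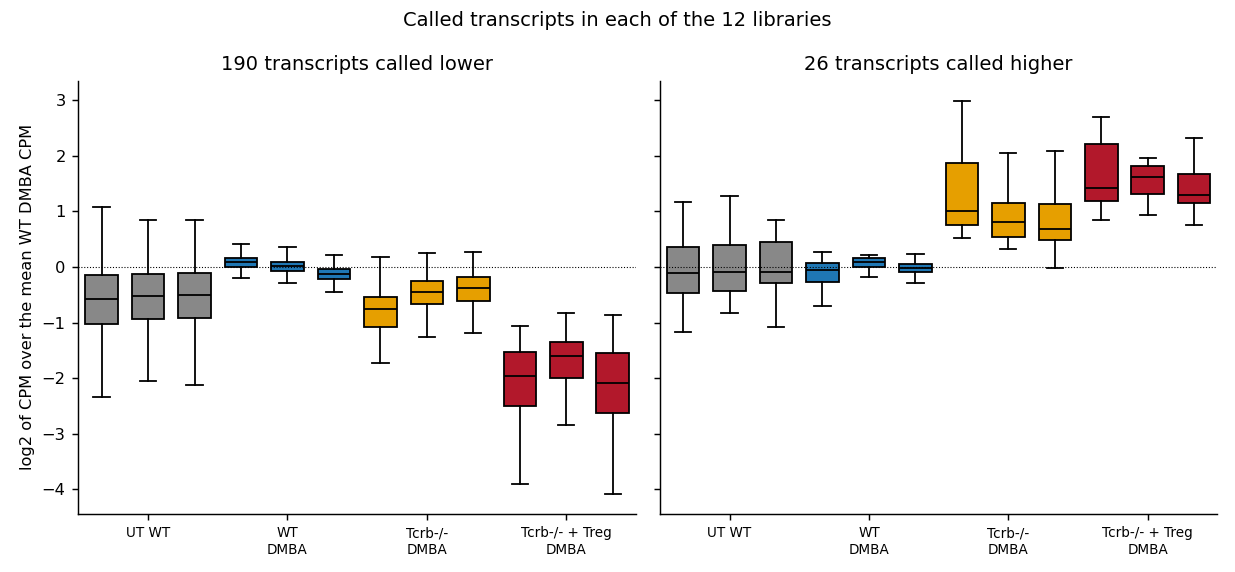
Boxes give, for each of the 12 libraries, the median and quartiles of log2 CPM relative to the mean WT DMBA CPM (y axis), with whiskers to 1.5 interquartile ranges, for the 190 lower (left) and 26 higher (right) transcripts. Medians of the lower transcripts run from −2.09 to −1.60 in Tcrb-/- + Treg DMBA and from −0.75 to −0.37 in Tcrb-/- DMBA.

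Of the calls, 4 transcripts are given in full, 2 lower and 2 higher, chosen for the size of their fold change among those with a mean of at least 1 TPM in both groups. MGP_FVBNJ_T0002475.1 (641 nt) was at 176, 222 and 186 TPM in WT DMBA libraries 1 to 3. In Tcrb-/- + Treg libraries it was at 2.42, 1.58 and 1.51 TPM, from 20, 14 and 11 reads. It was low in every Tcrb-/- + Treg library but not absent, whereas it was at 0 reads in all 3 Tcrb-/- libraries without Tregs. In UT WT libraries it was at 135, 126 and 111 TPM. The log2 fold change of Tcrb-/- + Treg over WT DMBA was −6.48 ± 0.28 (SE), with an adjusted p of 1.13e-04 by edgeR.

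MGP_FVBNJ_T0023465.1 (998 nt) was at 34.0, 21.8 and 19.6 TPM in WT DMBA. In Tcrb-/- + Treg libraries it was at 0.990, 2.12 and 1.12 TPM, a log2 fold change of −3.90 ± 0.47 (SE, adjusted p = 0.00406 by edgeR). The call held in 7 of 15 other edgeR fits, with adjusted p of at most 0.0296, and in all 8 DESeq2 fits. The Tcrb-/- + Treg levels overlapped those of UT WT, which were 2.03, 1.01 and 1.66 TPM. Tcrb-/- libraries without Tregs lay between, at 4.82, 3.95 and 6.06 TPM.

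MGP_FVBNJ_T0039424.1 (2105 nt) was at 7.32, 15.0 and 10.5 TPM in WT DMBA and at 54.7, 77 and 42.3 TPM in Tcrb-/- + Treg libraries. Its log2 fold change was 2.66 ± 0.37 (SE, adjusted p = 0.00679 by edgeR). It was called in 6 of 15 other edgeR fits, where the adjusted p reached 0.0368, and in 8 of 8 by DESeq2. Tcrb-/- libraries without Tregs, at 52.7, 54.1 and 29.5 TPM, overlapped the Tcrb-/- + Treg range, and UT WT was lowest at 1.42, 1.71 and 2.15 TPM.

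MGP_FVBNJ_T0042430.1 (2312 nt) was at 13.0, 15.7 and 17.3 TPM in WT DMBA and at 76.7, 37.1 and 87.4 TPM in Tcrb-/- + Treg libraries. The second Tcrb-/- + Treg library was the lowest of its group and still above every WT library. The log2 fold change was 2.41 ± 0.34 (SE, adjusted p = 0.00741 by edgeR). Of the same 15 edgeR fits 7 called it, with adjusted p up to 0.0434, as did 8 of 8 DESeq2 fits. By limma-voom it was not called, with an adjusted p of 0.0226 over 12 libraries and 0.0565 over the 6 compared. Tcrb-/- libraries without Tregs were at 97.5, 94.4 and 60.5 TPM and UT WT at 11.8, 9.29 and 7.74 TPM. All 4 transcripts had read estimates that were not whole numbers, so they share reads with other transcripts and their levels depend on how Salmon divided those reads.

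**Figure D3:**
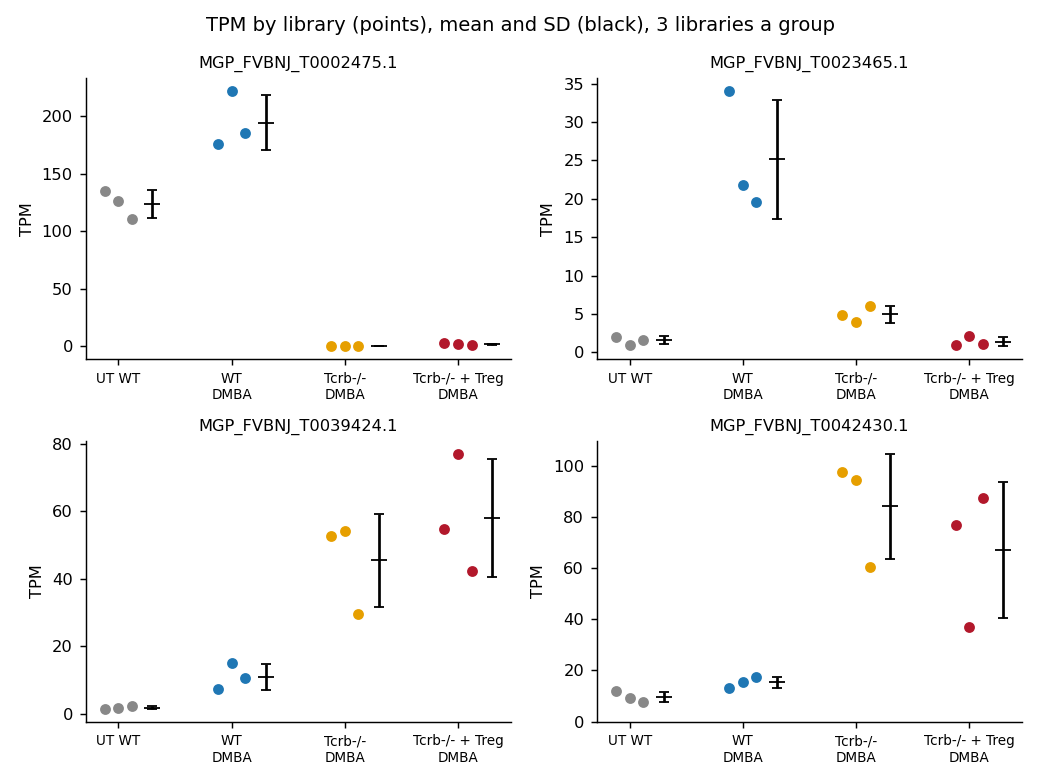
TPM of the 4 transcripts (y axes, linear) in the 12 libraries by group (x axes), with points for libraries and black bars for the mean and SD of 3. In each panel the 3 Tcrb-/- + Treg DMBA points lie wholly below or wholly above the 3 WT DMBA points.

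Called transcripts lay near each other in the numbering of the identifiers. Of the 216, 42 (19.4%) had another called transcript within 5 identifier numbers, against 2.48% of all tested transcripts. Of the 31 such pairs, 30 had the same direction. In the other pair, the transcript called lower (8027 nt) was the one at 0 in every Tcrb-/- + Treg library. It was at 3.78, 4.31 and 5.49 TPM in WT DMBA libraries 1 to 3. Its neighbour (8246 nt), called higher, was at 5.23, 3.38 and 3.6 TPM there. In Tcrb-/- + Treg libraries that neighbour was at 5.91, 7.49 and 7.93 TPM. Neither had whole-number estimates, and whether reads were divided differently between them was not tested. Counted from the other side, the same 42 calls were 3.11% of tested transcripts within that distance of a called one, against 0.396% of all tested. This restates the first comparison and adds nothing to it. Neighbouring numbers may be transcripts of 1 gene that share reads, and what the order of the numbers stands for is not given in the sources used here. The distance was chosen after the values were seen.

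The densest stretch ran over 35 numbers, 46738 to 46772, and was also chosen after the values were seen. Of its 33 tested transcripts, 10 were called lower and 0 higher by edgeR (0.348% lower over all tested), and 31 had a log2 fold change below 0. At an unadjusted p below 0.05, 23 were lower (6.58% over all tested). DESeq2 called 19 lower and 0 higher (2.59% lower over all tested). The stretch was picked for its calls, so nothing is read from these shares. The median log2 fold change was −1.90, and it ran from −2.10 to −1.76 over 27 other fits that included other scalings and each library left out. When WT DMBA replicate 1, 2 or 3 was left out, edgeR called 1, 3 and 7 transcripts of the stretch. When Tcrb-/- + Treg replicate 1, 2 or 3 was left out, it called 2, 10 and 8.

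The stretch held much RNA in WT skin. Its summed level was 4810, 3881 and 3544 TPM in WT DMBA libraries 1 to 3 and 640, 1059 and 636 TPM in Tcrb-/- + Treg libraries. The groups did not overlap, and the means of 4078 ± 655 and 778 ± 243 TPM (SD, n = 3 each) differed 5.24-fold. The 2 most abundant members made up 68.8% to 73.0% of the sum in WT DMBA and 54.7% to 72.4% in Tcrb-/- + Treg libraries. Without them the other 31 summed to 1181 ± 184 and 279 ± 18.6 TPM (SD, n = 3 each), a 4.23-fold difference. Both left-out members are among the 10 called lower, and the rest of those 10 remain in the 31. The stretch was picked for its lower calls, so these differences are a description only. For the whole stretch, UT WT, at 3112, 3578 and 4000 TPM, overlapped WT DMBA. Tcrb-/- libraries without Tregs, at 1862, 2927 and 2957 TPM, lay between WT DMBA and Tcrb-/- + Treg and overlapped neither. Whole-number estimates throughout were seen for 1 of the 33 transcripts, and reads may have been divided between members of the stretch.

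**Figure D4:**
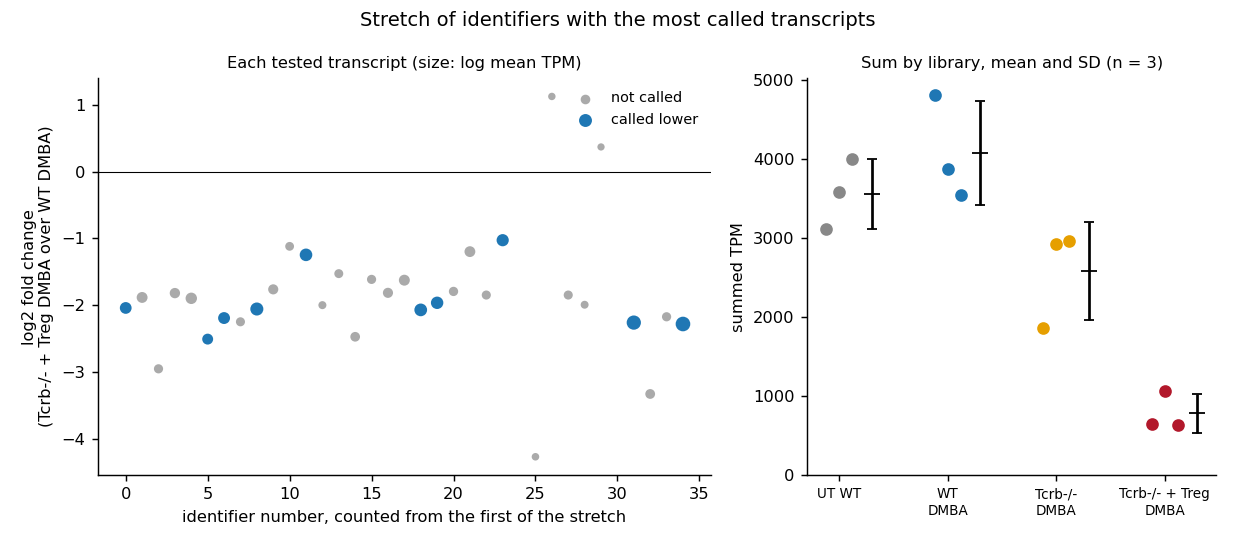
Left, log2 fold change of Tcrb-/- + Treg DMBA over WT DMBA (y axis) of the 33 tested transcripts by identifier number from the first of the stretch (x axis), with point size for level and blue for the 10 called lower. Right, summed TPM of the stretch in each library with the mean and SD of 3, where the Tcrb-/- + Treg DMBA libraries sit between 636 and 1059.

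Some transcripts were read in all libraries of a group and in none of the other. With at least 10 reads in each library required, a limit chosen after the values were seen, 98 (0.180%) were present in Tcrb-/- + Treg and at 0 in WT DMBA, and 87 (0.160%) the reverse. Most were of low level, with a median of 2.04 TPM where present in either direction. edgeR called 2 of these 185 transcripts (0.396% of all tested) and DESeq2 105 (3.67% of all tested). Since the 185 were chosen by their reads in these same groups, nothing is read from these counts against those shares. Only 3 of the 185 had whole-number estimates, and an estimate of 0 can mean that Salmon gave the reads to a similar transcript.

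The median log2 fold change of a level class depended on the scale. In the edgeR fit it was −0.06 for the 26003 transcripts below 1 TPM, −0.07 for transcripts of 1 to 10 TPM, 0.14 for 10 to 100, 0.27 for 100 to 1000 and 0.37 at 1000 TPM or more. On log2(TPM + 0.5), whose median over all tested transcripts was shifted by −0.132, the medians of the same classes were −0.07, −0.28, −0.14, 0 and 0.13. The added 0.5 draws differences toward 0, most of all below 1 TPM. From 1 TPM upward the medians rose from class to class on both scales, while the class below 1 TPM did not follow that order. The sign for 10 to 100 TPM flipped. In that class 27.3% of transcripts were higher without overlap and 12.7% lower on CPM. On TPM these shares were 8.72% and 27.3%. Other fits to counts kept the edgeR sign for 10 to 100 TPM. Medians there were 0.1 by edgeR with relative log expression scaling, 0.1 by DESeq2 and 0.13 by limma-voom. The TMM factors that set the edgeR scale were 1.0048 to 1.0946 in WT DMBA and 0.9014 to 0.9343 in Tcrb-/- + Treg libraries.

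The overall make-up of the libraries was compared by 3 measures, of which none passed an exact two-sided permutation test, where 3 against 3 libraries allow no p below 0.1. Transcripts with reads numbered 43836 ± 1270 in WT DMBA and 43311 ± 1247 in Tcrb-/- + Treg libraries (SD, n = 3, exact p = 1, adjusted 1). The 20 most abundant transcripts took 9.96% ± 1.16 and 11.8% ± 2.25 of reads (SD, n = 3, exact p = 0.3, adjusted 0.45). Transcripts above 1000 TPM held 34.4% ± 2.41 and 39.4% ± 2.86 of TPM (SD, n = 3, exact p = 0.2, adjusted 0.45). Without the 118 transcripts described above, that last share was 34.4% ± 2.41 and 37.3% ± 4.62 (SD, n = 3).

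How many transcripts passed depended on the tool and on which libraries entered the fit. The called transcripts kept their sign in the fits examined, which their choice favours. With only the 6 libraries compared, edgeR called 0 of 47367, with 7763 at an unadjusted p below 0.05 and a smallest adjusted p of 0.0113. Of those 7763, 4527 were higher in Tcrb-/- + Treg. At an adjusted p below 0.05 and a fold above 2, that fit held 573 transcripts, of which 228 were higher. The balance of directions thus also depended on the fit and the threshold. Over these same 6 libraries DESeq2 called 1968 and limma-voom 1. All 216 had the same sign in that edgeR fit, and 203 had an adjusted p below 0.05 there. With WT DMBA replicate 1, 2 or 3 left out, edgeR called 8, 27 and 63 transcripts. With Tcrb-/- + Treg replicate 1, 2 or 3 left out, it called 13, 401 and 120. In each of these 6 fits all 216 kept their sign, and 192 to 216 had an adjusted p below 0.05. Of the 216, 6 were called in every one of them and 38 in none. The refits share most libraries with the fit that chose the transcripts, so they are not independent of it. The groups did not overlap on CPM for all 190 lower and all 26 higher calls, against 21.8% of all tested transcripts. Leaving out 1 library could therefore hardly turn a sign, so nothing is read from the kept signs.

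**Figure D5:**
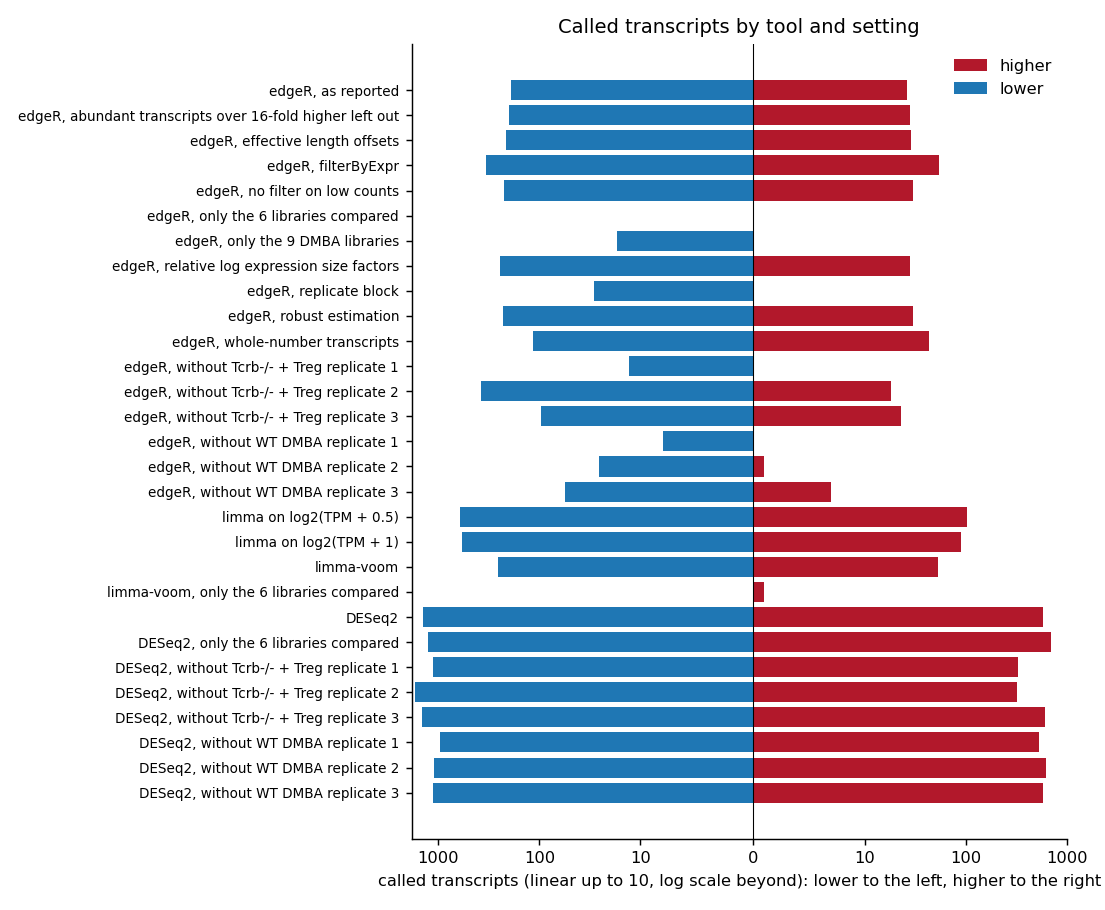
Bars give the number of transcripts called lower (blue, to the left) and higher (red, to the right) in Tcrb-/- + Treg DMBA against WT DMBA for each tool and setting (y axis) at the same thresholds, on an x axis that is linear up to 10 and logarithmic beyond. The edgeR counts run from 0 with only the 6 libraries compared to 401 without Tcrb-/- + Treg replicate 2, and the DESeq2 counts from 1472 to 2059.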

How the data were processed

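Libraries were made from whole skin with polyA selection (TruSeq RNA Library Prep Kit v2) and sequenced on a HiSeq 4000. The authors quantified reads against the FVB/NJ transcriptome with Salmon 1.5.2 and deposited, for each library, estimated counts and TPM per transcript. The study also summed estimated counts to genes. That step was not repeated, because no table used here pairs the identifiers with genes.

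Estimated counts were rounded. Transcripts with at least 10 reads summed over 12 libraries were kept. edgeR 4.0.16 (R 4.3.3) fitted 1 mean per group over all 12 libraries with TMM scaling, no covariate, and a quasi-likelihood test of the contrast. The common dispersion was 0.8179. Standard errors were taken from the fold change and the F statistic. The group came from the titles. Calls used the thresholds of the study's methods (adjusted p below 0.01, fold above 2). DESeq2 1.42.0, limma 3.58.1 and other settings were alternatives. DESeq2 was first run with independent filtering at 0.01 and then at its default, and both counts were known when the default was chosen. An estimate within 0.01 of a whole number in every library was called whole. Library measures were tested by exact permutation in scipy 1.17.1. The edgeR code was tested on simulated data drawn independently for each transcript, so that test does not cover reads shared between transcripts.

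The transcripts described in full follow a rule on size, level and non-overlap. The members, tests and lists were chosen with earlier results of these data known. The abundant set, the identifier stretch and distance, the level classes, the limit for presence in 1 group, and 4 alternative fits were added after the values were seen. Replicates of a group differed by more than sampling noise (chi-square of 21.8 to 108 per transcript), so none was merged. Gene lists drawn up for the case that identifiers could be named were not used.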

Additional observations from a re-analysis of the deposited data

How the results depend on the processing

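Of 30 alternatives to the count of 216 called transcripts, 8 were within 1.5 times of it and 22 were not. Of the 8, 1 was the fit on whole-number transcripts, which is alike in count but not in share. It called 159 of 3637 (4.37%), against 216 of 54539 (0.396%). More were lower than higher in 28 of them, fewer in 1, and in the other the count was 0. Without WT DMBA replicate 1, 2 or 3 the counts were 8, 27 and 63 by edgeR and 1499, 1732 and 1712 by DESeq2. Without Tcrb-/- + Treg replicate 1, 2 or 3 they were 13, 401 and 120 by edgeR and 1472, 2039 and 2059 by DESeq2, against 2000 by DESeq2 with all libraries. The count was 390 with filterByExpr, 718 on log2(TPM + 0.5) and 677 on log2(TPM + 1) by limma. It was 1018 at an adjusted p below 0.05 by edgeR, 745 lower and 273 higher. It was 17, all lower, with only the 9 DMBA libraries. With only the 6 libraries compared it was 0 by edgeR, 1968 by DESeq2 and 1 by limma-voom. The causes of these gaps were not tested, except that a filter or threshold itself changes what can pass. The higher share of calls was 12% by edgeR, 29.3% by DESeq2 and 27.0% over the 3637 transcripts with whole-number estimates. In that last fit 43 were higher and 116 lower. Of the 216, only 18 lower and 2 higher calls had whole-number estimates and could enter it, and 19 of these were called there. With the replicate number as a block, edgeR called 29, all lower. Same-numbered libraries of the groups did not deviate together (correlations of −0.0307, −0.0196 and 0.0334), so the numbers are not taken as a pairing. By DESeq2 calls the medians were 2481 nt and 2.54 TPM in WT DMBA for higher, and 2657 nt and 6.80 TPM for lower transcripts.

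None of the 4 transcripts described in full reversed in 27 alternatives each, and they missed the threshold in 2, 9, 10 and 10 of these. They were chosen for groups that do not overlap, so a reversal was hardly possible. None of 20 alternatives to the library measures reversed. Without 1 library the differences of Tcrb-/- + Treg from WT DMBA ran from −1250 to −84.3 transcripts with reads, 0.792 to 3.04 percentage points of reads in the top 20, and 3.55 to 6.40 points of TPM above 1000 TPM. Thinned to 17312330 reads, the first difference was −1080 (exact permutation p = 0.2).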
